A study of Oryza sativa Japonica Group with 8 samples.

Results

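Photoperiodic flowering regulators are the genes through which rice converts day length into the decision to flower. Of the 37859 genes in the deposited expression table, 7 were chosen by RAP identifier: Hd1 (Os06g0275000), Ehd1 (Os10g0463400), Ghd7 (Os07g0261200), DTH8 (Os08g0174500), OsMADS50 (Os03g0122600), OsMADS56 (Os10g0536100) and OsMADS51 (Os01g0922800). By their identifiers they lie on chromosomes 6, 10, 7, 8, 3, 10 and 1. They were chosen by identifier for their known role, with earlier results of these data known. RNA was sequenced from dissected meristems of rice (cultivar Nipponbare) at early stages of panicle formation, in 4 libraries of a wild type control and 4 of an osg1l2 single mutant, named for the ALOG family gene OsG1L2. The sources used here give neither the mutant allele nor the number of lines. Plants of both genotypes were first kept in long days (16 h light, 8 h dark) and then induced for 12 days in short days (12 h light, 12 h dark), with 28°C in the light, 26°C in the dark and 70% humidity, before dissection. The comparison asked whether the transcripts of these regulators differ between osg1l2 and wild type meristems.

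Day length is perceived in the leaf. There, Hd1, a CONSTANS-like protein, and Ehd1, a B-type response regulator, control the florigen genes. Ghd7, a CCT-domain protein, and DTH8, a subunit of the NF-Y transcription factor, repress Ehd1 in long days. Florigen protein then moves to the shoot apex, where it starts the change from leaf to panicle production. OsMADS51 is a MADS-box promoter of flowering in short days that acts upstream of Ehd1. OsMADS50 and OsMADS56 are both related to SOC1 of Arabidopsis, OsMADS50 as a promoter of flowering in long days and OsMADS56 as a repressor.

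The regulators fell into 2 sets by level. OsMADS56, OsMADS51, OsMADS50 and Hd1 were above 0.1 FPKM in every library, whereas Ehd1, DTH8 and Ghd7 were at or near 0 throughout. FPKM scales fragment abundance by the length of the gene model and the size of the library, so levels of different genes can be set side by side. The difference between the genotypes passed the test for neither OsMADS56 nor OsMADS51, the only regulators abundant enough for the main test. Hd1 was the only regulator whose 4 osg1l2 values all lay below the 4 wild type values, at a level under 1 FPKM. Of the genes with a mean of 0.1 to under 1 FPKM, 9.93% were separated in either direction, so this is not particular to Hd1.

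**Figure D1:**
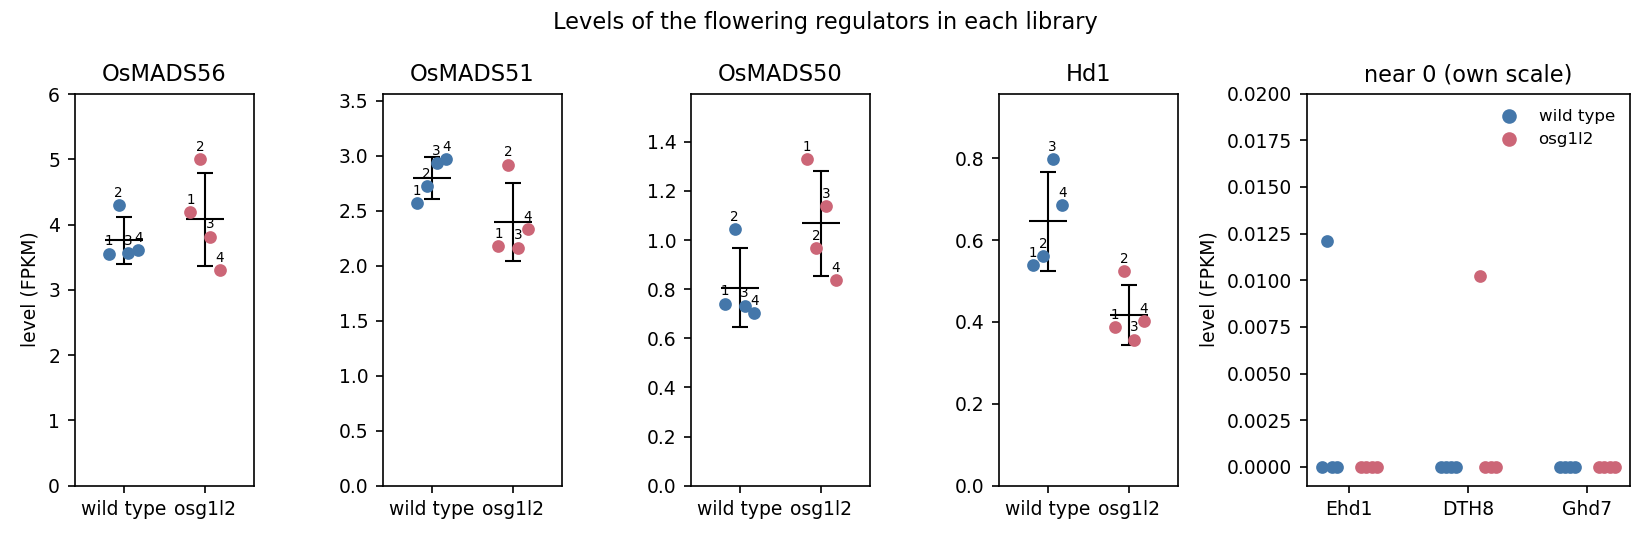
Level (FPKM) of each regulator in the 4 wild type (blue) and 4 osg1l2 (red) libraries, each panel with its own axis from 0. Points are single libraries, numbered by replicate in the first 4 panels, and black bars there give the mean ± SD (n = 4); Hd1 lies between 0.538 and 0.798 FPKM in wild type and between 0.357 and 0.524 FPKM in osg1l2, while Ehd1, DTH8 and Ghd7 do not exceed 0.0121 FPKM.

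Among the regulators best known from the leaf, Ghd7 was listed at 0 FPKM in all 8 libraries. Ehd1 was listed at 0 in 7 libraries and at 0.0121 FPKM in wild type replicate 2. DTH8 was listed at 0 in 7 libraries and at 0.0102 FPKM in osg1l2 replicate 1. In all, 22 of the 24 values of these 3 genes were 0, and 5317 genes of the table (14.0%) were listed at 0 in every library, as Ghd7 was. An FPKM of 0 can also be a failed estimate, and depth is unknown, so no fold change and no detection limit is given for these 3 genes. Transcripts of Ehd1, DTH8 and Ghd7 were thus recorded at no usable level in either genotype.

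Hd1 was the exception among the leaf regulators. Its wild type values were 0.538, 0.561, 0.798 and 0.685 FPKM in replicates 1 to 4. Its osg1l2 values were 0.387, 0.524, 0.357 and 0.401 FPKM. The groups did not overlap, but the gap between them was narrow, from 0.524 FPKM in osg1l2 replicate 2 to 0.538 FPKM in wild type replicate 1. The wild type mean of Hd1 was 0.646 FPKM ± 0.121 (SD, n = 4). Its osg1l2 mean was 0.417 FPKM ± 0.0736 (SD, n = 4), which is 0.646 of the wild type mean. Such separation was common at this level: of 6102 genes with a mean of 0.1 to under 1 FPKM, 9.93% were separated in either direction, and 6.01% were separated with osg1l2 lower. Of all 24356 genes that averaged 0.1 FPKM or more, 11.3% were separated.

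An exact two-sided permutation test of the Hd1 difference on the log2(FPKM + 1) scale gave p = 0.0286, the smallest that 4 against 4 libraries allow, with a difference of -0.21. Groups that do not overlap always give this value, so it restates the separation, which 9.93% of genes at this level share. Of the 4 regulators above 0.1 FPKM, Hd1 alone reached it. Ehd1, DTH8 and Ghd7 have too few values above 0 to reach it. The main test across genes required a mean of 1 FPKM or more, which left Hd1 out. When the limit was lowered to 0.1 FPKM (a setting chosen after the data were seen), limma gave Hd1 a difference of -0.21 (95% interval -0.37 to -0.06), an unadjusted p of 0.012 and an adjusted p of 0.16. With no filter at all the adjusted p in limma was 0.21. Adding 0.1 in place of 1 before the logarithm, which compresses a gene of this level less, gave a difference of -0.52 (95% interval -0.91 to -0.14) and an adjusted p of 0.16 in limma, where 1.96% of 24356 genes were called. The lower Hd1 values in osg1l2 therefore did not pass the threshold of 0.05 once all genes were taken into account.

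**Figure D2:**
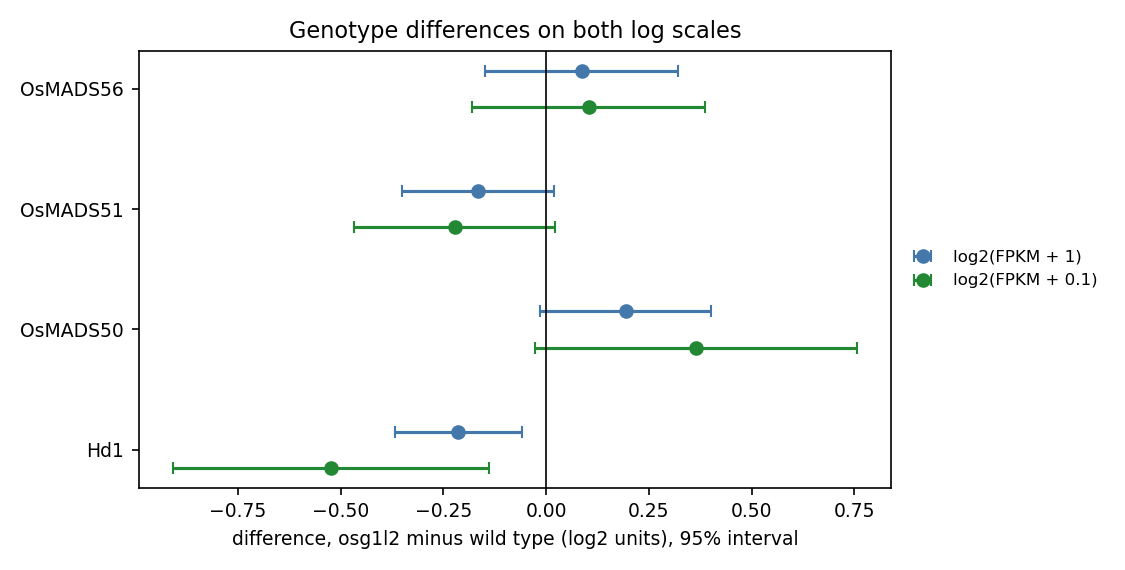
Difference of the mean log2 level, osg1l2 minus wild type, for the 4 regulators above 0.1 FPKM, with the 95% interval from limma with the level limit at 0.1 FPKM; blue points use log2(FPKM + 1) and green points log2(FPKM + 0.1). The intervals of OsMADS56, OsMADS51 and OsMADS50 include 0 on both scales, and that of Hd1 lies below 0 on both before adjustment for the number of genes.

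The authors' deposited table gave Hd1 a value of 1.24 in wild type and 0.613 in osg1l2, with -1.02 as the log2 fold change and 0.56 as the q-value. The log2 ratio of the mean FPKM of the libraries was -0.63. The log2 fold changes of the authors' deposited table and of the mean FPKM thus differed by 0.387 for Hd1, against a median of 0.0400 over 24179 genes, and 96.1% of these genes differed by less. The authors' deposited table gave wild type 1.92 times the mean FPKM for Hd1 and osg1l2 1.47 times. For OsMADS50, OsMADS51 and OsMADS56 the log2 fold changes of the authors' deposited table and of the mean FPKM differed by 0.0176, 0.0449 and 0.0404. Both sources placed Hd1 lower in osg1l2, and neither called it.

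OsMADS51, the short-day promoter upstream of Ehd1, was at 2.57, 2.72, 2.93 and 2.97 FPKM in wild type replicates 1 to 4. In osg1l2 it was at 2.18, 2.92, 2.17 and 2.33 FPKM. Replicates 1, 3 and 4 of osg1l2 lay below every wild type library, and osg1l2 replicate 2 lay inside the wild type range. The wild type mean was 2.80 FPKM ± 0.189 (SD, n = 4), and the osg1l2 mean was 2.40 FPKM ± 0.355 (SD, n = 4). The log2(FPKM + 1) difference was -0.17 with a standard error of 0.081 and a 95% interval of -0.35 to 0.02 (limma, unadjusted p = 0.070, adjusted p = 0.30), so the interval includes no difference. Without osg1l2 replicate 2 the difference was -0.24, with an adjusted p of 0.13 in limma. Leaving out any other single library gave -0.19 to -0.13, with adjusted p from 0.27 to 0.54 in limma. The authors' deposited table gave OsMADS51 a log2 fold change of -0.18 and a q-value of 0.56.

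OsMADS56, the SOC1-related repressor, had the highest level of the 7 genes. Its wild type values were 3.55, 4.30, 3.57 and 3.61 FPKM in replicates 1 to 4, and its osg1l2 values were 4.19, 5.01, 3.81 and 3.30 FPKM. The osg1l2 libraries reached both above and below the wild type range. The wild type mean of OsMADS56 was 3.76 FPKM ± 0.364 (SD, n = 4), and its osg1l2 mean was 4.08 FPKM ± 0.719 (SD, n = 4). Its log2(FPKM + 1) difference was 0.09 with a 95% interval of -0.14 to 0.32 (limma, adjusted p = 0.68). Without osg1l2 replicate 2, its highest library, the difference was 0.002, and without osg1l2 replicate 4, its lowest, it was 0.16. The authors' deposited table gave OsMADS56 a log2 fold change of 0.16 and a q-value of 0.62.

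OsMADS50, the SOC1-related promoter, was at 0.740, 1.05, 0.733 and 0.703 FPKM in wild type replicates 1 to 4. In osg1l2 it was at 1.33, 0.966, 1.14 and 0.836 FPKM. All osg1l2 libraries lay above wild type replicates 1, 3 and 4, and wild type replicate 2 lay inside the osg1l2 range. The wild type mean of OsMADS50 was 0.805 FPKM ± 0.161 (SD, n = 4). Its osg1l2 mean was 1.07 FPKM ± 0.215 (SD, n = 4), which is 1.33 times as high. Its mean over the 8 libraries, 0.937 FPKM, kept it out of the main test. An exact two-sided permutation test of its log2(FPKM + 1) difference of 0.19 gave p = 0.0857. With the level limit at 0.1 FPKM, limma gave a 95% interval of -0.01 to 0.40 and an adjusted p of 0.31. The authors' deposited table gave OsMADS50 a log2 fold change of 0.39 and a q-value of 0.16, the lowest q-value of the 7 genes.

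In all, 2 of the 7 regulators, OsMADS56 and OsMADS51, reached a mean of 1 FPKM and entered the main test, and limma called neither, against 1.93% of the 18254 genes tested. Neither of them had an unadjusted p under 0.05, against 19.5% of the genes tested. With a mean of at least 0.1 FPKM, 4 regulators were tested and limma called none, against 1.92% of 24356 genes, with only Hd1 at an unadjusted p under 0.05. With no filter all 7 were tested, again with none called, against 0.988% of 37859 genes, and Hd1 was again the only 1 at an unadjusted p under 0.05. None of the 7 had a q-value under 0.05 in the authors' deposited table, where 2.02% of 37619 entries did. At a background this low, a count of 0 among so few genes is not a result about the regulators. With 19.5% of genes at an unadjusted p under 0.05 in the main test, Hd1 reaching it is no such result either. That share was not worked out at the lower limits. Among the 4 regulators above 0.1 FPKM, OsMADS50 and OsMADS56 had higher means in osg1l2 and Hd1 and OsMADS51 lower ones. These directions were the same after median-of-ratios rescaling and after quantile normalization of the libraries.

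The order of levels, from OsMADS56 through OsMADS51, OsMADS50 and Hd1 to Ehd1, DTH8 and Ghd7, was read from the means over all libraries. OsMADS56 and OsMADS51 did not overlap over the 8 libraries, nor did OsMADS51 and OsMADS50. OsMADS50 and Hd1 did overlap in wild type and over all libraries, and so did not differ there beyond their spread, although in osg1l2 their ranges were apart. OsMADS50 exceeded Hd1 in 7 of the 8 libraries. The exception was wild type replicate 3, at 0.733 FPKM for OsMADS50 and 0.798 FPKM for Hd1. Ehd1, DTH8 and Ghd7 did not differ from each other beyond their spread. OsMADS56 lay above between 67.6% and 75.0% of all genes in a library, OsMADS51 above 61.8% to 65.8%, OsMADS50 above 48.9% to 55.5% and Hd1 above 44.2% to 49.6%. The median level of the tested genes, which all average 1 FPKM or more, was 5.24 FPKM, higher than the mean of any of the 7. The median of all genes was 0.818 FPKM, below the means of OsMADS56, OsMADS51 and OsMADS50 and above that of Hd1.

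**Figure D3:**
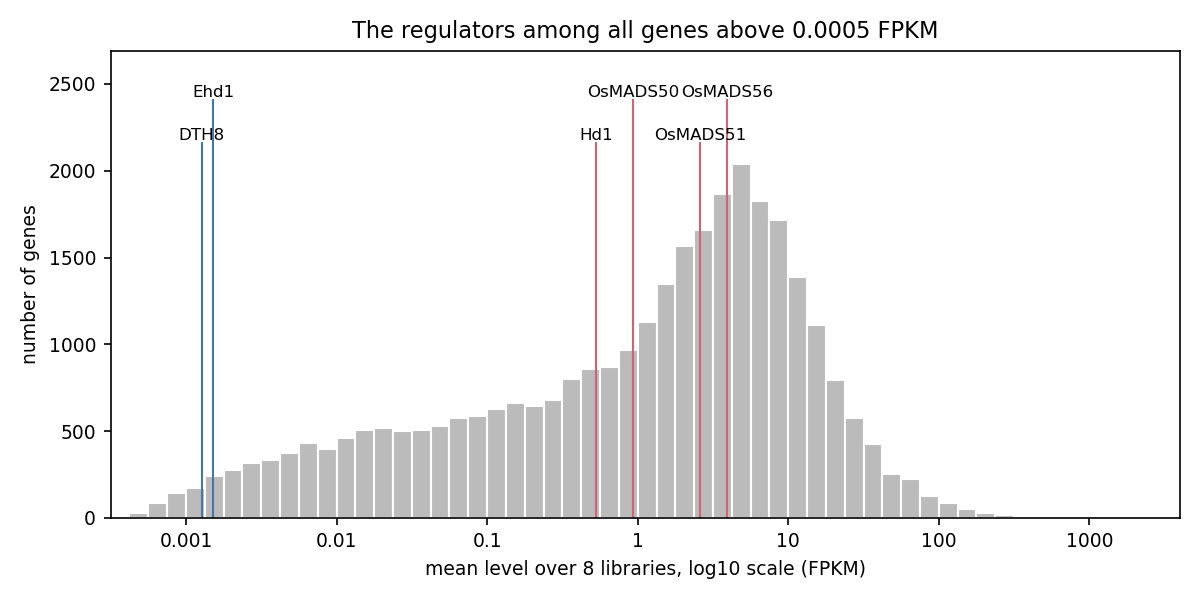
Number of genes (vertical axis) by mean level over the 8 libraries (FPKM, log10 axis) for all genes averaging 0.0005 FPKM or more, with vertical lines at the regulators; red marks those above 0.1 FPKM in every library and blue Ehd1 and DTH8. Hd1 and OsMADS50 lie under 1 FPKM and OsMADS51 and OsMADS56 on the rising side of the main peak, while Ghd7, listed at 0, is not drawn.

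Ratios between regulators within a library do not depend on how libraries were scaled. The ratios fixed in the plan each included a gene under 1 FPKM and were not computed by its rule, so those given here were chosen after the data were seen and carry no test. Hd1 over OsMADS56 was 0.151, 0.130, 0.224 and 0.190 in wild type replicates 1 to 4 and 0.0924, 0.105, 0.0935 and 0.122 in osg1l2. The groups did not overlap. Hd1 alone was already separated, as were 9.93% of genes at its level, and the share of genes separated in such a ratio was not counted. OsMADS51 over OsMADS56 was between 0.633 and 0.823 in wild type and between 0.520 and 0.706 in osg1l2, and these ranges overlapped. OsMADS50 over OsMADS56 was between 0.195 and 0.243 in wild type and between 0.193 and 0.317 in osg1l2, with the wild type range inside the other. OsMADS50 over Hd1 was 1.38, 1.86, 0.918 and 1.03 in wild type replicates 1 to 4 and 3.44, 1.84, 3.19 and 2.08 in osg1l2. Replicate 2 of each genotype was alike in this ratio, and the other osg1l2 libraries lay above every wild type library.

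Hd1, OsMADS50 and OsMADS56 varied more between libraries of one genotype than the median tested gene. The coefficient of variation of OsMADS50 was 19.97% in wild type and 20.1% in osg1l2, and that of Hd1 was 18.7% and 17.6%. The median over the tested genes was 8.92% in wild type and 8.59% in osg1l2, over genes that lie mostly at higher levels. OsMADS51 was at 6.73% in wild type and 14.8% in osg1l2. OsMADS56 was at 9.68% and 17.6%. Replicate 2 of osg1l2 had the highest OsMADS56, OsMADS51 and Hd1 of its genotype, and replicate 2 of wild type the highest OsMADS56 and OsMADS50 of its genotype.

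**Figure D4:**
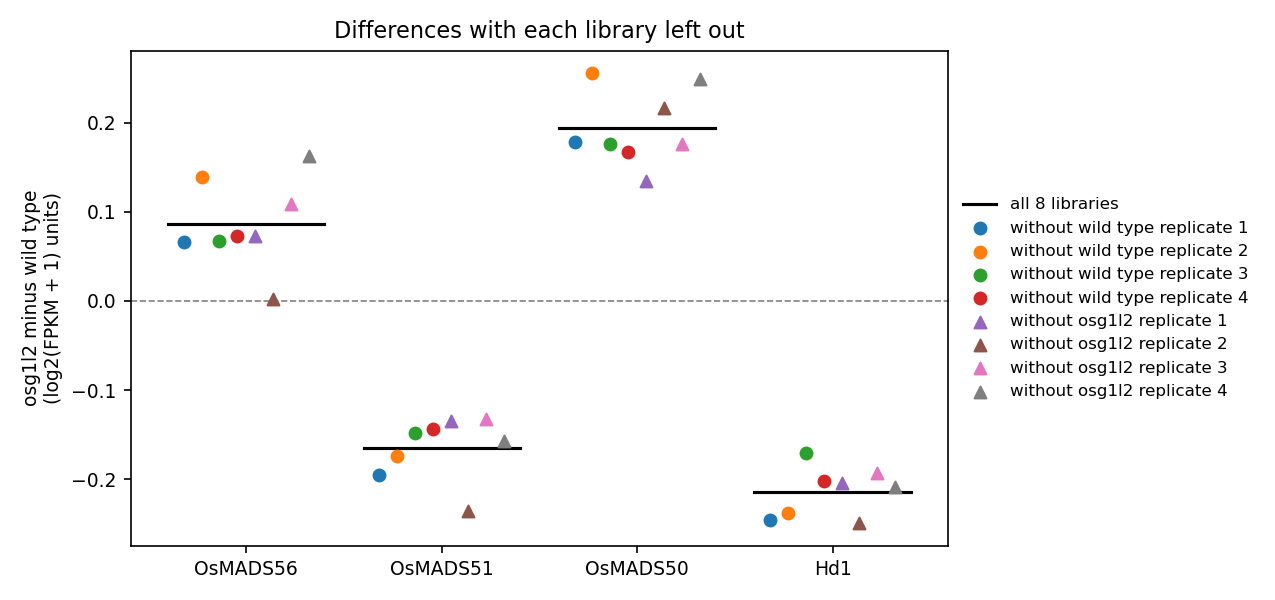
Difference of the mean log2(FPKM + 1), osg1l2 minus wild type, with all 8 libraries (black lines) and with each library left out (circles, wild type; triangles, osg1l2). The sign of each of the 4 differences is the same in every case, with Hd1 between -0.25 and -0.17 and OsMADS56 between 0.002 and 0.16.

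When single libraries were left out, the difference of Hd1 ranged from -0.25 to -0.17, with exact permutation p-values from 0.0286 to 0.0571. The Hd1 groups stayed apart in each case, as leaving out a library cannot make them overlap. With groups of unequal size, separated groups need not give the smallest possible p. The difference of OsMADS50 ranged from 0.13 to 0.26, with exact permutation p-values from 0.0571 to 0.20. On the second principal component of the genes averaging 1 FPKM or more, with 17.9% of their variance, wild type replicate 2 was far from all 7 other libraries. Without it, the difference of Hd1 was -0.24, that of OsMADS50 0.26, that of OsMADS51 -0.17 and that of OsMADS56 0.14. The OsMADS56 value was thus larger by over 1.5 times without this library and still not called (limma, adjusted p = 0.44).

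The genes whose profile over the 8 libraries was most like those of OsMADS56 and OsMADS51 were sought among the tested genes by the root mean square distance between log2(FPKM + 1) profiles centred on their means. For OsMADS56 the nearest was Os02g0602900, on chromosome 2 by its identifier, at a distance of 0.0448, against a median of 0.194 over 18253 genes. It averaged 17.6 FPKM in wild type and 19.6 FPKM in osg1l2. For OsMADS51 the nearest was Os06g0665000, on chromosome 6, at a distance of 0.0186, against a median of 0.155. It averaged 13.4 FPKM in wild type and 11.8 FPKM in osg1l2. Os02g0602900 and Os06g0665000 were not called either (limma, adjusted p = 0.43 and 0.23). OsMADS56 and OsMADS51 lay 0.176 apart, and 34.5% of genes were nearer to OsMADS56 than OsMADS51 was. Of the 18253 genes, 2173 lay nearer to OsMADS56 than a flat line did, and 5029 lay nearer to OsMADS51.

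Other genes of the pathway were followed through 20 further RAP identifiers, listed from general knowledge of rice flowering, photoreceptor and clock genes. The deposited tables pair no identifier with a name, so these are given by identifier and count. Of the 20, 15 reached a mean of 1 FPKM, and 4 stayed under 0.1 FPKM in every library. None of the 15 passed the test in either direction (limma, lowest adjusted p = 0.12), against 1.93% of all tested genes, a background at which a count of 0 is no result about the pathway. An unadjusted p under 0.05 was found for 3 of the 15, against 19.5% of all tested genes, and none of the 20 had a q-value under 0.05 in the authors' deposited table. By mean, 8 were higher and 7 lower in osg1l2, with log2 differences from -0.23 to 0.29 and a median of 0.02, against -0.04 for all tested genes. The most abundant were Os08g0157600, with a wild type mean of 77.3 FPKM ± 8.59 (SD, n = 4) and an osg1l2 mean of 89.2 FPKM ± 14.1 (SD, n = 4), and Os01g0182600, with a wild type mean of 50.6 FPKM ± 5.18 (SD, n = 4) and an osg1l2 mean of 54.0 FPKM ± 19.1 (SD, n = 4). For both, the ranges of the genotypes overlapped. In osg1l2, Os01g0182600 was highest in replicate 2 (81.0 FPKM) and lowest in replicate 4 (36.5 FPKM), both outside its wild type range of 45.4 to 57.1 FPKM. Os08g0157600 had the reverse order, lowest in replicate 2 (75.1 FPKM) and highest in replicate 4 (102.7 FPKM). The cause of this spread among the osg1l2 libraries, and its part in the values of the regulators, was not tested.

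Genes of the meristem and of early inflorescence identity were followed through 8 identifiers listed in the same way. A sum over both kinds does not measure tissue composition alone. All 8 were above 0 in every library, and 7 averaged at least 1 FPKM. Their summed level was between 125.9 and 157.0 FPKM in wild type and between 78.7 and 124.1 FPKM in osg1l2. Every osg1l2 library thus lay below every wild type library, by a narrow gap. Singly, 2 of the 7 were separated, against 11.3% of all genes averaging 0.1 FPKM or more. No such share was worked out for sums of genes. The 4 osg1l2 libraries differed widely in this sum, with replicates 1 and 2 at 78.7 and 91.3 FPKM and replicates 3 and 4 at 117.5 and 124.1 FPKM. Hd1 in osg1l2 was lowest in replicate 3 and highest in replicate 2. In wild type, replicate 3 had both the highest sum and the highest Hd1. The lowest wild type sum was in replicate 2 and the lowest wild type Hd1 in replicate 1. All 7 that were tested had lower means in osg1l2, with log2 differences from -0.89 to -0.17. Those listed for the meristem were at -0.30, -0.25 and -0.17, and those for inflorescence identity at -0.89, -0.84, -0.80 and -0.18. The eighth, Os06g0665400, was under the level limit and had a higher mean in osg1l2, at 0.296 FPKM against 0.202 FPKM in wild type. None of the 7 was called (limma, lowest adjusted p = 0.075), against 1.93% of all tested genes. An unadjusted p under 0.05 in limma was found for 5 of the 7, a larger share than the 19.5% of all tested genes. In the authors' deposited table, 4 of the 8 had a q-value under 0.05, against 2.02% of all entries. This summed level, like Hd1, was lower in every osg1l2 library than in any wild type library, and its part in the Hd1 and OsMADS51 values was not tested. In bulk samples such as these, fewer cells of a type and less RNA per cell cannot be told apart.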

How the data were processed

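RNA from meristems was sequenced in 4 wild type and 4 osg1l2 libraries, extracted with a plant column kit, per the labels' protocols. The authors deposited FPKM values per library, with IRGSP-1.0 as the genome build named in the submitters' processing notes. The sources used here give no aligner, quantification program, strandedness or depth. Values above 0 go down to 4.5e-281 FPKM, which no whole number of reads gives at any real depth, so the values are estimates and no count test was run. Summed FPKM ranged from 213940 to 231675 per library. The authors also deposited, per the file headers, a value per genotype (treated as a score, its unit is not named), a log2 fold change, written as 65535 where 1 genotype is 0, and a q-value.

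FPKM was transformed to log2(FPKM + 1), which understates changes of low genes. Genes averaging 1 FPKM or more were tested in R 4.3.3 with limma 3.58.1 (trended variance prior, two-sided, Benjamini-Hochberg over all tested genes, called at an adjusted p under 0.05); the code was tested on simulated data. Exact permutation tests, in Python 3.11.15 with numpy 2.4.6 and pandas 2.3.3, covered single regulators. Figures used matplotlib 3.10.9. The design text calls the replicates independent but does not name separate plants or pools, so the p-values cover only variation among these libraries, which may be technical.

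Names of the 7 regulators come with their identifiers in the choice of members. The RefSeq gene table (ASM3414082v1) held 1 of the 37859 identifiers and none of the 7, so no coordinates or sequences are given, and OsG1L2 itself was not analysed here, leaving genotype labels unchecked. The regulators and lists were chosen with earlier results of these data known. The naming rule covered the 7 regulators, the profile nearest to each of the 2 most abundant, and, of the pathway list, called genes and the 2 most abundant. Alternatives were other pseudocounts, filters and scalings, a replicate block, library weights, a robust prior and leaving out each library.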

Additional observations from a re-analysis of the deposited data

Results flagged for a closer look

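Among the 8 groups of 4 libraries of the regulators above 0.1 FPKM, 2 had 1 library that lay far from the other 3, with a gap to its nearest neighbour above Dixon's 95% critical value for 4 values, as a share of the group's range. Chance flags about 1 in 20 groups of independent values, and these groups share libraries. OsMADS56 in wild type had a gap of 0.924 of the range, from replicate 2 at 4.30 FPKM to the next at 3.61 FPKM. OsMADS50 in wild type had a gap of 0.891, from replicate 2 at 1.05 FPKM to 0.740 FPKM. Ehd1 in wild type had a gap of 1 by construction, because 1 library was at 0.0121 FPKM and the others at 0. DTH8 in osg1l2 had a gap of 1 for the same reason, with 1 library at 0.0102 FPKM and the others at 0. The OsMADS56 and OsMADS50 values came from the library that also stood apart on the second principal component.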

How the results depend on the processing

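No regulator and no gene of the pathway list was called by limma under any alternative that tested it. The differences of OsMADS56, OsMADS51, OsMADS50 and Hd1, and those of the ratios, kept their sign in every alternative. The signs of the pathway genes were not followed. The size of the Hd1 difference depended on the pseudocount, at -0.52 with 0.1 (also with the filter at 0.1 FPKM) and -0.32 with 0.5, as did that of OsMADS50, at 0.36 with 0.1. With a pseudocount of 1 the log2 ratio differences of Hd1 over OsMADS56 and OsMADS50 over Hd1 were -0.30 and 0.41, against -0.73 and 1.03 with none. Left-out libraries gave -0.24 to -0.13 for OsMADS51, 0.002 to 0.16 for OsMADS56, -0.25 to -0.17 for Hd1 and 0.13 to 0.26 for OsMADS50. The count of 352 called genes was 153 at a mean of at least 5 FPKM, where fewer genes were tested and neither OsMADS56 nor OsMADS51 was, 1097 with library quality weights, and 155 to 826 with left-out libraries. The split of 164 higher and 188 lower turned to 220 and 135 after median-of-ratios rescaling and to 210 and 130 after quantile normalization. Replicate numbers did not pair the libraries (correlations of deviations 0.069, -0.017, -0.091 and -0.12); the replicate block gave 152 called genes, with adjusted p in limma of 0.40 for OsMADS51 and 0.61 for OsMADS56, and exact sign-flip p-values over 4 pairs, of which the smallest possible is 0.125, of 0.125 for Hd1 and 0.25 for OsMADS50. The cause was not tested for the weights, the block or the left-out libraries. Ehd1, DTH8 and Ghd7 gave no difference to follow. The files give no depth, and its effect on the low genes could not be examined.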
